A study of Mus musculus with 7 samples.

Results

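Distal H3K4me2 peaks of mouse chondrocytes that held no H3K27ac peak were examined here: 26281 of the 66355 H3K4me2 peaks on chromosomes 1 to 19 and X, or 39.6%. A peak was included when it overlapped by 1 bp or more no peak of 4 H3K27ac lists, reached within 1 kb of no protein-coding transcription start site (TSS), and had its midpoint at most 200 kb from a TSS. The 4 lists were chondrocyte H3K27ac replicate 1, dermal fibroblast H3K27ac, and H3K27ac in chondrocytes of WT and of E160Δ/Δ E308Δ/Δ mice. The regions were thus chosen by measured peak calls of these 5 libraries, and the lack of H3K27ac is a description and not a finding. Of the 43301 distal H3K4me2 peaks, 60.7% met the rule (95% exact Clopper-Pearson interval 60.2 to 61.2, counting error only), and the other 17020 overlapped H3K27ac and serve as the comparison below.

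The study asked which chromatin regions control Sox9, the master transcription factor of cartilage, in chondrocytes. Primary chondrocytes came from rib cartilage of newborn mice, and the primary dermal fibroblasts that served as a negative control came from newborn dorsal skin. E160Δ/Δ E308Δ/Δ mice lack both copies of 2 upstream Sox9 enhancers, removed by CRISPR/Cas9 in C57BL/6J embryos, and the WT mice were littermates from heterozygous crosses. H3K27ac and H3K4me2 were profiled by ChIP-Seq, 1 library for each group except chondrocyte H3K27ac with 2. Sexes were mixed, the cells were cultured before fixation, and in such bulk material a mark on few cells and a weak mark on many cells cannot be told apart.

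H3K4me2, dimethylation of lysine 4 on histone H3, is found at promoters and at enhancers, whether or not the enhancer is in use. H3K27ac, acetylation of lysine 27, is laid down by the coactivators p300 and CBP and is typical of promoters and enhancers that are active. Enhancers that carry H3K4 methylation without H3K27ac are commonly described as primed or poised, a state seen at genes of other stages or lineages as well as at genes of the cell itself. A peak list states where reads passed the caller's threshold, so a missing peak is not a measured absence.

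The sequences below show the central 200 bp of 7 of these peaks, read from the mm9 genome on the plus strand. The first 2 are the highest-scoring sites more than 10 kb from any H3K27ac peak near Sox9 and near Sox5, which encodes a partner of Sox9 in cartilage, and the other 5 are the highest-scoring peaks of the whole set. Capitals mark a match to 1 of the searched motifs: the homeobox letters TAATTA in the Sox9 window, the reverse complement of the NFI half-site TTGGCA in the Sox5 window, and the GC box GGGCGGG in the Gpr180 window.
Sox9 lone peak, chr11:112672542-112672741: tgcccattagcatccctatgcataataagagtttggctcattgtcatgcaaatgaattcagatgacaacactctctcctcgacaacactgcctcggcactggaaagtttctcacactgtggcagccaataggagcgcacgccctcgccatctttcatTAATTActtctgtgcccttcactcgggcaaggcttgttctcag
Sox5 lone peak, chr6:144838927-144839126: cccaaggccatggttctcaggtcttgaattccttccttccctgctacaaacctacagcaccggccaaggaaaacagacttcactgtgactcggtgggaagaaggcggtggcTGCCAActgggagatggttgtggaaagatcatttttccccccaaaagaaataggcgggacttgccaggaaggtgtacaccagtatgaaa
Nlgn1 peak, chr3:26051969-26052168: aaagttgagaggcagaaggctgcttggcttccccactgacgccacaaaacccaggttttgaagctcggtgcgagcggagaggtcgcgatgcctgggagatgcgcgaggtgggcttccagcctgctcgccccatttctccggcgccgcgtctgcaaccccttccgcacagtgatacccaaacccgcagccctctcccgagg
Gm5138 peak, chr6:83817415-83817614: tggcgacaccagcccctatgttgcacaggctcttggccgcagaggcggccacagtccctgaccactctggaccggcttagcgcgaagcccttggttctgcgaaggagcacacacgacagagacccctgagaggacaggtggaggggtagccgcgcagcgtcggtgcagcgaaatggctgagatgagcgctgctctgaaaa
Zdhhc13 peak, chr7:56005106-56005305: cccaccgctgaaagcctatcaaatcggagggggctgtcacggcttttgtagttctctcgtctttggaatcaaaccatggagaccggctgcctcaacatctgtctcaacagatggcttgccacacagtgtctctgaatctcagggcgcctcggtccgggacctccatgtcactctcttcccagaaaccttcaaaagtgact
Lrrc2 peak, chr9:110856513-110856712: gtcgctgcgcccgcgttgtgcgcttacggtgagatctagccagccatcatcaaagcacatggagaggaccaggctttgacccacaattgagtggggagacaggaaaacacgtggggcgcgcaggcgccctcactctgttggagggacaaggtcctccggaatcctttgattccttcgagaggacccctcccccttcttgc
Gpr180 peak, chr14:118579608-118579807: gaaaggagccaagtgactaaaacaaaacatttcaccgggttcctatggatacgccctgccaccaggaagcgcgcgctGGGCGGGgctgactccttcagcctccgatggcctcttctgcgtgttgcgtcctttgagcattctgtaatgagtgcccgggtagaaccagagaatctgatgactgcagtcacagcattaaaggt
The Sox9 window had a GC content of 48.5% and the Sox5 window 51.5%. The windows of the 5 highest-scoring peaks ranged from 53.5% at Zdhhc13 to 63.5% at Nlgn1, above the median of 47.5% over the same window of all 26281 regions. A motif match is a string of letters and not a measured binding site.

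The lists held between 19454 peaks for fibroblast H3K27ac and 66355 for H3K4me2 on these chromosomes, and between 18.3 and 92.2 Mb. The H3K4me2, chondrocyte replicate 1 and fibroblast lists are in a different output format from the other 3, and chondrocyte replicate 2 is on another genome build. Scores rank peaks within a list and are not comparable between lists. The labelled cell types were checked at the promoters of marker genes. WT chondrocytes had H3K27ac at 10 of 12 chondrocyte marker promoters, all except Sox5 and Matn1, chondrocyte replicate 1 at 6, and fibroblasts at 1. Fibroblasts had H3K27ac at 4 of 8 dermal fibroblast markers, and WT chondrocytes at 6, so the fibroblast markers did not separate these lists. H3K4me2 was at 8 of 12 chondrocyte marker promoters, with no peak within 1 kb of the TSS of Sox6, Col2a1, Col11a1 and Matn1. No blood, skeletal muscle or keratinocyte marker promoter had H3K27ac in any list, and of the 4 endothelial markers 1 had it in fibroblasts alone.

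The peaks without H3K27ac were narrower and lower in score than distal peaks with it. Their median width was 797 bp (quartiles 576 to 1130 bp), against 1478 bp (1026 to 2073 bp) for distal peaks with H3K27ac and 1778 bp for promoter peaks. Of the peaks without H3K27ac 16% were under 500 bp and 2.71% over 2 kb, against 2.83% and 27.3% of distal peaks with it. The median H3K4me2 score was 102 against 172. When distal peaks were split into 10 classes of equal size by score, the share without H3K27ac fell from 80.2% (79 to 81.4) in the lowest class to 39.6% (38.1 to 41) in the highest.

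The regions were also the narrower peaks at like score. Within each of the 10 score classes the median was smaller for peaks without H3K27ac, from 477 against 783 bp in the lowest class to 1410 against 1953 bp in the highest. By width, 89.7% of distal peaks of at most 500 bp and 5.49% of those over 3 kb lacked H3K27ac. A wider peak has more bases that can meet an H3K27ac peak by position alone, and the part of this in the result was not tested. Each class came from 1 H3K4me2 library, so no test between classes was run.

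**Figure D1:**
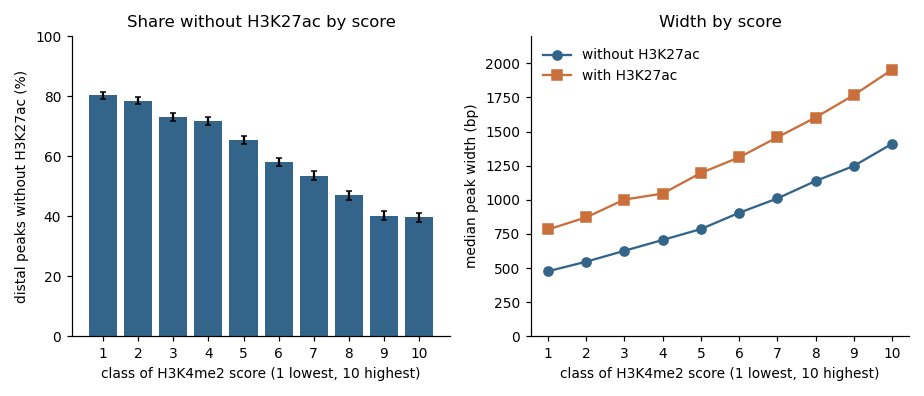
Left, the share of distal H3K4me2 peaks without H3K27ac (%) in 10 classes of H3K4me2 score, with 95% exact binomial intervals. Right, the median width (bp) in each class for peaks without and with H3K27ac; the share falls from 80.2% to 39.6%, and the peaks without H3K27ac are the narrower ones in every class.

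The 5 highest-scoring peaks lay 20.3 to 344 kb from H3K27ac, where all regions had a median gap of 19 kb and an upper quartile of 45 kb. The first, with a score of 1219, was 19.4 kb upstream of Nlgn1, which encodes the synaptic adhesion protein neuroligin 1, and 344 kb from the nearest H3K27ac peak. The others lay near Gm5138 (score 1074, 20.3 kb from H3K27ac), Zdhhc13 (1071, 38.7 kb), Lrrc2 (989, 71.6 kb) and Gpr180 (986, 41.5 kb). All 5 were among the top 0.0799% of H3K4me2 peaks, and 763 of the 26281 regions were in the top 10%. The 4 that could be placed in chondrocyte H3K27ac replicate 2, all except that at Gm5138, had no peak there either.

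The 5 widest peaks ranged widely in score. The widest, 5155 bp in an exon near Cog7, scored 197, and that near Cep170, 5048 bp, scored 109 and lay 0.491 kb from H3K27ac. The third, 4904 bp near Dhx15, scored 556, in the top 5.73% of H3K4me2 peaks. Those near Tmcc2 (4823 bp) and Kpna3 (4729 bp) were intronic, and the Tmcc2 peak was the one of the 5 with a replicate 2 H3K27ac peak.

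Most of the regions were not edges of acetylated domains. The median gap from edge to edge to the nearest H3K27ac peak of the 4 lists was 19 kb (quartiles 7.93 to 45 kb). Flanks, at most 2 kb from H3K27ac, numbered 1612 or 6.13% (5.85 to 6.43). A further 6588, or 25.1%, lay over 2 and up to 10 kb away, and 18081, or 68.8% (68.2 to 69.4), were lone sites over 10 kb away. Gaps over 100 kb were found for 2450 regions and over 500 kb for 143. These shares depend on which lists are counted and on the 2 limits. The share of flanks was 22.6% when a peak covered by H3K27ac over less than 50% of its length was also let in. Each peak so added overlaps H3K27ac and counts as a flank by definition, so this rise was fixed by the setting.

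**Figure D2:**
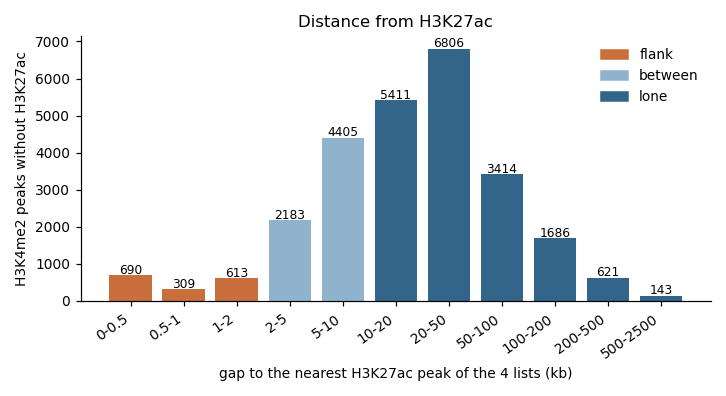
Number of distal H3K4me2 peaks without H3K27ac by the gap in kb to the nearest H3K27ac peak of the 4 lists, in bins of unequal length; colours give flanks, sites between and lone sites. The highest bin, 20 to 50 kb, holds 6806 peaks, and the flanks together 1612.

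Just inside the rule were 234 regions with a gap of at most 100 bp, of median score 77.4 and width 715 bp. Just outside it were 165 distal peaks that H3K27ac covered by at most 100 bp, of median score 78.2 and width 676 bp. Score and width were thus similar on both sides of the limit.

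Flanks differed from lone sites in score and width. Flanks had a median score of 76.1 and a median width of 848 bp, whereas lone sites had a score of 109 and a width of 770 bp. Of the flanks, 829 lay within 2 kb of a chondrocyte replicate 1 peak, 814 of a WT peak, 622 of a fibroblast peak and 373 of an E160Δ/Δ E308Δ/Δ peak, and 333 lay beside a fibroblast peak only. The H3K27ac region beside the flank itself overlapped an H3K4me2 peak in 60.5% of cases. To the next region of the same kind the median gap was 15 kb, and 21.5% had one within 5 kb.

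The 5 regions farthest from H3K27ac were all intergenic. The farthest was 2349 kb from H3K27ac and 49.4 kb upstream of Cdh9, which encodes a cadherin, and a second near the same gene was 2238 kb away. The others were near the olfactory receptor gene Olfr153 (2279 kb), Gm10110 (1853 kb) and 4930524E20Rik on chromosome X (1845 kb). Their scores ran from 59.2 to 289.

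Chondrocyte H3K27ac replicate 2 was not used to choose the regions. Its list is on the GRCm38 build, so peaks were placed by their distance from the TSS of the same gene in each build, with 500 bp of slack, and 35970 distal peaks could be placed. Of these 14.7% had a replicate 2 peak. Among regions without H3K27ac it was 242 of 21735, or 1.11% (0.978 to 1.26). The share rose with the number of the 4 lists that had a peak, to 8.59% (7.84 to 9.39) with 1, 25.8% with 2, 55.4% with 3 and 71.9% (70.2 to 73.6) with 4. Among genes whose length agreed within 1 kb in both annotations, the ends of this series were 0.962% and 85.5%. The 1.11% became 0.709% with no slack and 2.17% with 2 kb of slack. The rate at random positions was not computed, so a single replicate 2 match can be a coincidence of position.

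**Figure D3:**
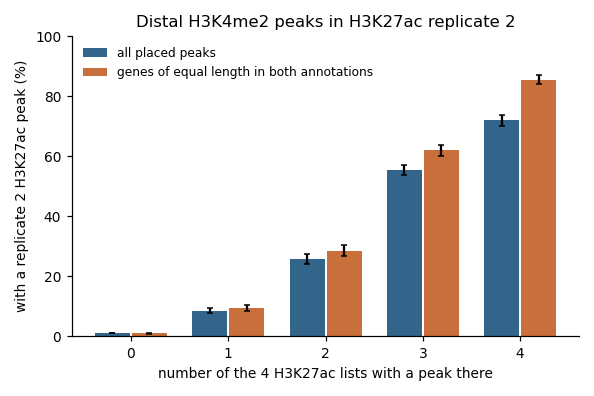
Share of placed distal H3K4me2 peaks (%) with an H3K27ac peak of chondrocyte replicate 2 at the same distance from the TSS, by the number of the 4 H3K27ac lists with a peak there, with 95% exact binomial intervals. Blue bars give all placed peaks and orange bars those at genes of equal length in both annotations; both rise from about 1% with 0 lists, at 1.11% and 0.962%, to 71.9% and 85.5% with 4.

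The share with a replicate 2 peak was highest in flanks, although 71 of the 242 matches lay in sites between and 69 at lone sites. Flanks had 7.7% (6.32 to 9.27), sites between 1.28% (1 to 1.61) and lone sites 0.464% (0.361 to 0.587). A high H3K4me2 score did not raise the share: in the highest score class 5 of 1415 regions, or 0.353% (0.115 to 0.823), had a replicate 2 peak, against 40.6% of distal peaks with H3K27ac in the same class. In the lowest score class the values were 1.18% and 30.6%. Peaks with H3K27ac in fibroblasts alone had 2.62% (1.72 to 3.81), and those with it in chondrocyte replicate 1 alone 11.1% (9.88 to 12.3). The highest-scoring regions with a replicate 2 peak lay near Ccne1, which encodes cyclin E1 (score 538, 0.398 kb from other H3K27ac), and Amn (449, 76.3 kb). These 2 were chosen after their values were seen.

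By position the regions were spread over introns and intergenic sequence. The midpoint was in an intron for 45.5%, in an exon for 4.91% and intergenic for 49.6%, against 52.4%, 4.38% and 43.2% of distal peaks with H3K27ac. The median distance to the nearest TSS was 38.5 kb, against 35.2 kb. The share of distal peaks without H3K27ac was 55.6% (53.5 to 57.7) up to 5 kb from the TSS and 63.1% (62 to 64.2) beyond 100 kb. Among the regions 35.8% lay inside the gene whose TSS was nearest, 4.17% lay within 1 kb of another transcript start of a protein-coding gene and 1.48% within 1 kb of a long noncoding one. Distal peaks with H3K27ac were within 1 kb of another coding start in 10.5% of cases. On chromosome X there were 2.45 regions per Mb, against 8.51 to 13.4 on the autosomes, and 56% of its distal peaks lacked H3K27ac.

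The genes nearest to the regions had marked promoters less often than the genes nearest to distal peaks with H3K27ac. The nearest promoter had WT H3K27ac for 54.3% of the regions (53.7 to 54.9), for 66.5% (65.8 to 67.2) of distal peaks with H3K27ac, and for 47.1% of all protein-coding genes. In chondrocyte replicate 1 the 3 values were 45.2%, 57.1% and 41.6%. They were 51.2%, 60.8% and 44.7% in fibroblasts, and 50.5%, 62.8% and 44.4% in E160Δ/Δ E308Δ/Δ chondrocytes. In replicate 2, which the rule did not use, they were 48.2%, 61% and 43.1%. For H3K4me2 itself the values were 75.4%, 77.2% and 62.7%. Lone sites had the lower value in WT, 48.2%, but a site within 10 kb of a promoter's H3K27ac peak cannot be lone by definition. Counted once for each gene, WT H3K27ac marked 50.9% of the nearest genes of the regions and 62.1% of those of distal peaks with H3K27ac. With every transcript start in place of 1 TSS a gene, the 54.3% became 40.3%. The 66.5% and the 47.1% were not recomputed in that way, so the 40.3% cannot be set against them.

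Sorted by promoter state, the nearest genes with H3K4me2 but no H3K27ac at the promoter in the 4 lists had the highest share. At these 3138 genes 72.8% (71.8 to 73.9) of 6918 distal peaks lacked H3K27ac. At genes with both marks it was 56.7% (56.1 to 57.4), and at genes with neither 64.4% (63.4 to 65.4). At 50% of all genes the promoter had H3K27ac in 1 or more of the 4 lists. Many peaks share a gene, so these intervals, which treat peaks as independent, are too narrow. The promoter states were read from the same 5 libraries that chose the regions, so this split is a description.

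The regions were unevenly spread over genes. When records of 1 name on a chromosome were joined, 9663 of 22208 protein-coding genes were nearest to 1 or more, with a median of 2, and 210 genes were nearest to 10 or more. These 210 genes took 2472 regions, or 9.41%. Without the chondrocyte replicate 1 list as a filter, 326 genes had 10 or more, and with the higher-scoring 50% of H3K4me2 peaks alone there were 0. Each gene's territory, the stretch of genome nearest to its TSS within 200 kb, had a median of 287 kb for them and 47.8 kb for all genes. Per 100 kb of territory they held 3.94 regions, against 1.4 over all genes, a difference that choosing genes by their count brings with it.

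In all 34 genes had 14 or more regions, up to 18. The 25 described here include 6 of the 15 genes with exactly 14, those with the largest summed width of regions. Efna5, which encodes an ephrin ligand, had 18, but 17 further distal peaks of the gene overlapped H3K27ac. Fgf1, a fibroblast growth factor gene, had 18 with 14 lone, and Auts2 also had 18 with 14 lone, and 16 of its 18 lay inside the gene. Arid1b, which encodes a subunit of the BAF chromatin remodelling complex, and Sulf2, a heparan sulfate sulfatase gene, had 17 each. Zfp516, Agap1 and Gm10258 also had 17.

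Xylt1, whose enzyme starts the sugar chains of proteoglycans, had 16 regions and 10 distal peaks with H3K27ac. Leprel1, a collagen prolyl hydroxylase gene, had 14 and 5. Bmpr1b, which encodes a BMP receptor, had 15 and 5, and Bmper, a BMP-binding protein gene, had 15 and 6. The promoters of these 4 genes had H3K27ac in WT chondrocytes, as did 24 of the 34 genes with 14 or more regions.

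At 4 of the 25 genes at most 1 distal H3K4me2 peak overlapped H3K27ac. AY702102 had 15 regions and 0 distal peaks with H3K27ac. Scml4 had 15 and 1, Qk, which encodes an RNA-binding protein and had H3K27ac at its promoter in all 4 lists, had 14 and 1, and Kcnma1, a potassium channel gene, had 16 and 1. The remaining genes were Lphn2 and Cadm1 with 16, Atp10a, Pard3 and Egln3 with 15, and Rybp, Nav2, Zswim6 and Odz3 with 14. Odz3 had 17 distal peaks with H3K27ac and no H3K27ac at its annotated TSS. The Kcnma1 promoter had H3K27ac in replicate 2, at the RefSeq start, and none at the GENCODE start in the other lists.

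**Figure D4:**
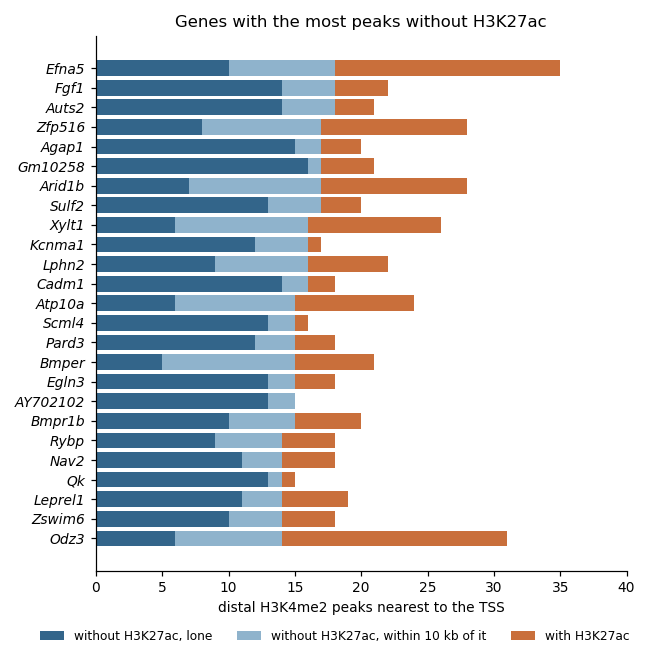
Number of distal H3K4me2 peaks nearest to the TSS of 25 genes with 14 or more peaks without H3K27ac, split into lone sites, sites within 10 kb of H3K27ac, and peaks with H3K27ac. The dark and light blue bars add up to 14 to 18 in each gene, while the orange bar runs from 0 in AY702102 to 17 in Efna5 and Odz3.

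Of 3089 genes with 5 or more distal H3K4me2 peaks, 316 had no distal peak with H3K27ac and 58 had no peak without it. Over all genes 60.7% of distal peaks lacked H3K27ac, a share that by itself yields more genes of the first kind. The numbers that this share alone would give were not computed. Among the 316 were Casz1, a zinc finger transcription factor gene, with 14 regions, all lone, of which 11 were inside the gene. Axin2, a feedback inhibitor of Wnt signalling, had 13 regions of which 7 were lone, and H3K27ac at its promoter in all 4 lists. Creb5 had 13 and Stx8 13, all lone, those of Stx8 all inside the gene. Tbx5, which specifies the forelimb and the heart, had 11, and Hand2, a limb and heart factor, and Uncx, a factor of the sclerotome, had 10 each. These were named for this pattern after their counts were seen.

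By the rule the regions lie in stretches between H3K27ac peaks, and they were also counted by stretch. A stretch with 1 or more was found 12039 times, 1123 held 5 or more and together 7563 regions, and 117 held 10 or more. The fullest, 2017 kb around Tox3 and Sall1, held 23. The 883 kb around Six2 and Six3, homeobox genes of the kidney and forebrain, held 20, as did 903 kb around Hand2 and Scrg1. Casz1 and its neighbours had 19 in 422 kb, and Scml4 and Sobp 19 in 296 kb. Shorter ones were found at Lmx1b, a limb and kidney homeobox gene, with 13 in 277 kb, and inside Pard3 with 13 in 152 kb. These stretches were ranked by counts not adjusted for length, and a longer stretch has more room for regions. The ranking describes them and tests nothing.

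Of 5 chondrocyte genes followed in detail, Sox9 and Sox5 had many of these regions and Col2a1 and Acan 1 each. Sox9 had 13 of its 19 distal H3K4me2 peaks without H3K27ac, and 9 of the 13 were lone. They ran from 90.5 kb upstream to 197 kb downstream of the TSS, all intergenic. Upstream of the gene, 2 were flanks, at 90.5 kb (0.105 kb from H3K27ac, score 149.7) and at 14.6 kb (0.345 kb, score 90.1), and the one at 84.3 kb upstream (980 bp, score 191) was 4.8 kb from H3K27ac. The highest in score, the region whose centre is printed above, was 29.1 kb downstream, 1344 bp wide, with a score of 339, and 22.4 kb from H3K27ac. One region, 156 kb downstream with a score of 52.1, had a replicate 2 peak, and the other 12 had none. The Sox9 promoter had H3K27ac in fibroblasts, WT, E160Δ/Δ E308Δ/Δ and replicate 2, and no peak in chondrocyte replicate 1.

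Sox5 had 13 of 15 distal peaks without H3K27ac, 12 of them lone. Upstream were 7, and 6 lay in introns of the gene, none of the 13 with a replicate 2 peak. The highest, printed above, was 109 kb upstream with a score of 494, in the top 8.28% of H3K4me2 peaks, and 10.7 kb from H3K27ac. Next was one at 52.8 kb upstream with a score of 371, 66.6 kb from H3K27ac. At its annotated TSS Sox5 had H3K4me2 and no H3K27ac in any list, and other starts of the gene were not examined as promoters.

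Sox6, the other partner of Sox9, was the nearest gene of none, because the annotated TSS of a neighbour leaves it a territory of 26.3 kb. Within the Sox6 gene, 567 kb long, 11 regions were counted against 1 distal peak with H3K27ac. Col2a1, the gene of the main cartilage collagen, had 1 of 2, at 9.75 kb upstream and 3.81 kb from H3K27ac. Acan, the gene of the main cartilage proteoglycan, had 1 of 5, at 52.1 kb upstream and with a score of 55.2.

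The share also varied between gene lists. The share of distal H3K4me2 peaks without H3K27ac over all genes was 60.7%, and the lists ran from 29% to 97.6%. The lists share genes (Tbx5 and Hand2 stand in 2 of them, for example) and were drawn up with earlier results of these data known, so the shares are descriptions and were not tested. Many peaks share a gene, so the intervals, which treat peaks as independent, are too narrow. An interval that leaves out the background does not by itself set a list apart. Matn3, Ucma, Col9a3, Col1a1, Barx1, Alx1, Sost, Cdh5, Fgfr1 and Bmp7 are named below after their counts were seen.

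Lists of other lineages had shares above the background, and among their intervals only that of endothelium held it. The heart list had 41 of 42 (97.6%), with Tbx5 11 of 11, Hand2 10 of 10, Nkx2-5 4 of 4 and Tbx20 4 of 4. Tbx5 and Hand2 also stand in the list of limb and mesenchyme patterning. Neural regulators had 76 of 88 (86.4%), with Sox2 11 of 12 and Pax6 and Lhx2, homeobox genes of eye and brain, 8 of 8 and 7 of 7. Skeletal muscle had 20 of 24 (83.3%), of which Pax3, a gene of muscle precursors, gave 10. Blood and immune genes had 27 of 33 (81.8%), with Cebpa 5 and Pax5, a B cell factor gene, 4. The Cebpa promoter had H3K27ac in all 4 H3K27ac lists, alone among the 19 blood and immune promoters. Endoderm and epithelium had 55 of 69 (79.7%), with Grhl2 8 of 9 and Gata6 8 of 8. The Gata6 promoter had H3K27ac in fibroblasts and WT, alone among the 20 promoters of these genes. Endothelium had 54 of 76 (71.1%), with an interval of 59.5 to 80.9 that holds the background. Within it Flt1, a VEGF receptor gene, had 9 of 10, Erg 7 of 12, Kdr 7 of 9 and Emcn 7 of 8, and Cdh5, the VE-cadherin gene, 5 of 11. WT H3K27ac marked 0 of the 12 heart and 3 of the 21 neural promoters, whereas H3K4me2 marked 4 and 17. Over the 4 lists 1 heart promoter had H3K27ac. It was that of Tbx5, in chondrocyte replicate 1 and in fibroblasts, without H3K4me2.

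Matrix and housekeeping lists lay below it. Cartilage matrix had 25 of 84 (29.8%, 20.3 to 40.7), with Col11a1 6 of 22, Hapln1 6 of 14 and Col9a1 5 of 11. Matn3, Ucma and Col9a3 had distal peaks and none without H3K27ac. Dermal matrix had 37 of 97 (38.1%), with Dpt 6 of 8 and Dcn 5 of 13, and Col1a1, the gene of the main bone and skin collagen, 0 of 7. Housekeeping genes had 9 of 31 (29%). The promoters of 14 of the 19 cartilage matrix genes and of all 20 housekeeping genes had H3K27ac in WT.

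Of the lists of skeletal regulators, the counting interval of osteoblast genes began just above the background, at 62.2%, and the intervals of the other 4 held it. Chondrocyte transcription factors had 138 of 225 (61.3%), with Zbtb20 13 of 27, Runx1 12 of 22 and Barx1 6 of 6. Limb and mesenchyme patterning had 107 of 168 (63.7%), with Lmx1b 13 of 15, and at Alx1 1 of 12. Sclerotome and axial genes had 51 of 81 (63%), with Foxc2 and Uncx 10 each. Osteoblast genes had 34 of 44 (77.3%, 62.2 to 88.5), with Runx2, the master factor of bone, 8 of 10 by nearest TSS and Sost 4 of 4. Inside the Runx2 gene itself, whichever TSS was nearest, 5 distal peaks lacked H3K27ac and 12 had it. Growth plate and Hedgehog genes had 47 of 83 (56.6%), with Hhip 8 of 8, Ptch1 8 of 10 and Gli2 9 of 17.

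Among signalling pathways the share was lowest for TGF-beta. TGF-beta genes had 55 of 125 (44%, 35.1 to 53.2), with the ligand gene Tgfb2 9 of 16 and Smad3 8 of 16. FGF genes had 54 of 106 (50.9%), with Fgf1 18 of 22, Etv5 6 of 12 and the receptor gene Fgfr1 2 of 10. BMP and GDF genes had 133 of 214 (62.1%), with Bmp2 12 of 14, the inhibitor gene Smad7 13 of 24 and Bmp7 9 of 9. Wnt genes had 162 of 261 (62.1%), with Axin2 13 of 13, Tcf7l2 12 of 26, and Ctnnb1, the beta-catenin gene, 14 of 17. Retinoic acid and nuclear receptor genes had 67 of 110 (60.9%), with the retinoic acid degrading enzyme gene Cyp26b1 9 of 13, and AP-1 genes 21 of 43 (48.8%), with Jun 5 of 10.

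**Figure D5:**
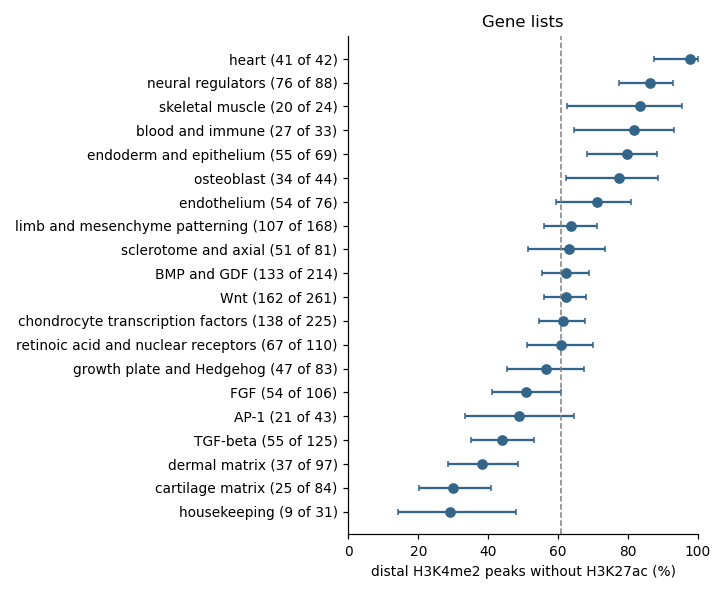
Share of distal H3K4me2 peaks without H3K27ac (%) near the genes of each of 20 lists, with 95% exact binomial intervals that treat peaks as independent, and the counts beside each name. The dashed line is the share over all genes, 60.7%; heart genes stand highest at 97.6% and housekeeping and cartilage matrix genes lowest at 29% and 29.8%.

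GC content was close in the regions and in distal peaks with H3K27ac, while some motifs differed in share. The median GC content was 46.3% in both. In all 13 motifs were searched on both strands in the central 200 bp, and not all are given here. The AP-1 letters TGANTCA were in 10.3% (9.96 to 10.7) of the regions, 11.2% (10.7 to 11.7) of distal peaks with H3K27ac and 9.2% of all H3K4me2 peaks. The RUNX letters TGTGGTT were in 6.34%, 6.29% and 5.57%. The TEAD letters GGAATG were in 14.6%, 14.8% and 13.5%, and the SOX letters ACAATGG in 1.89%, 2.16% and 1.93%. The NFI half-site TTGGCA was in 15.9% (15.5 to 16.4), against 14.4% (13.9 to 14.9) of distal peaks with H3K27ac. The FOX letters TGTTTAC were in 4.03% (3.79 to 4.27) of the regions, against 3.45% (3.18 to 3.73). The CTCF motif, bound by the insulator protein of that name, was in 139 regions (0.529%, 0.445 to 0.624), against 0.235% (0.168 to 0.32) of distal peaks with H3K27ac and 0.335% of all peaks. The central 200 bp is a larger part of a narrow peak than of a wide one, and its effect on these shares was not tested.

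A small group of the regions was rich in CpG. CpG-rich, with a GC content over 55% and an observed over expected CpG ratio over 0.6, were 564 regions (2.15%, 1.97 to 2.33), against 1.43% (1.25 to 1.62) of distal peaks with H3K27ac and 13% of promoter peaks. Of the 564, 78.4% were lone, 41.3% had the midpoint in an exon, and 23% lay within 1 kb of another coding transcript start. Their median score was 217. Polg had 5 such regions, and Bcor, Casz1, Lhx2, Pax2 and Uncx had 3 each, genes named after their counts were seen.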

How the data were processed

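ChIP-Seq peak lists of 6 libraries were used as deposited, and the input library was not analysed here. Per the labels and the study's methods, the authors cleaned reads with fastp, mapped them to mm9 with Bowtie2 2.4.4 and called peaks per library with MACS2 2.2.4 against input. The unit is the peak score that the authors deposited, comparable only within a list, and it starts at 50 in the H3K4me2, chondrocyte replicate 1 and fibroblast lists, whose short format is that of earlier MACS releases. The coordinates of replicate 2 are those of GRCm38, those of all other lists mm9. How deeply the libraries were sequenced is unknown. Genes came from GENCODE vM1 (22350 protein-coding records, TSS at the 5′ end of the gene), and replicate 2 promoters from RefSeq genes of GRCm38 (18089 genes placed by symbol). No coordinate was converted. Regions were matched with Python 3.11.15, numpy 2.4.6 and pandas 2.3.3, the count of 26281 was checked with bedtools 2.31.1, and the overlap code was tested on simulated lists. Shares carry exact Clopper-Pearson 95% intervals (scipy 1.17.1), which cover counting error only. No group comparison was tested, as every group but chondrocyte H3K27ac has 1 library. The genes named were 25 by number of regions (ties by summed width), up to 4 per list and 5 chondrocyte genes, together with the peaks ranking in the first 5 by score, width and distance, and exceptions are stated. The members and lists were chosen with earlier results of these data known. The repeat content was not used here, because the genome used carries no repeat mask.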

Additional observations from a re-analysis of the deposited data

Results flagged for a closer look

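H3K4me2 peaks without H3K27ac were also found outside the comparisons above. Beyond 200 kb from any protein-coding TSS, 4347 of 6371 H3K4me2 peaks (68.2%, 67.1 to 69.4) overlapped no H3K27ac peak of the 4 lists. Their median width was 743 bp, their median score 103 and their median gap to H3K27ac 54.8 kb. The genes with most of them were Robo1, an axon guidance receptor gene, with 25, and Auts2 with 22, and Myc and Efnb2 had 18 each. On chromosome Y, 5 of 12 H3K4me2 peaks overlapped no H3K27ac. No control library of H3K4me2 was used here.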

How the results depend on the processing

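Of 90 values under other settings, 37 stayed within the counting interval of the main value (for counts, within 1.5 times) and 53 moved further. The cause of these moves was not tested. The count of 26281 regions stayed within 1.5 times in all settings but one, 7951 with the higher-scoring 50% of H3K4me2 peaks. In that setting flanks were 2.5%, lone sites 77.4%, the median width 1177 bp, WT-marked nearest promoters 48.3%, introns 38.1%, GC content 47.2%, replicate 2 peaks 0.805%, and genes with 10 or more regions 0. Where H3K27ac had to cover 50% of the peak to remove it, flanks were 22.6%, lone sites 56.7%, width 881 bp, WT-marked promoters 56%, introns 46.9% and such genes 405. With the higher-scoring 50% of each H3K27ac list they were 2.6%, 80.9%, 882 bp, 57%, 47.3% and 522. In the setting with 50% cover every added peak overlaps H3K27ac. It is then a flank by definition, so the higher share of flanks and the lower share of lone sites were fixed in advance. With peaks under 1 kb apart merged, flanks were 3.74%, lone sites 70.3% and width 841 bp. A promoter distance of 500 bp gave 53% WT-marked promoters, and 2 kb gave 55.7% and 5.8% flanks. With every transcript start, lone sites were 69.4%, width 790 bp, WT-marked promoters 40.3% and genes with 10 or more 317. Without Cho_H3K27ac replicate 1, flanks were 4.74%, lone sites 73.2%, width 833 bp, WT-marked promoters 55.4%, introns 46.3% and such genes 326. Without the fibroblast list, flanks were 5.03%, lone sites 72.7% and width 805 bp, and without the WT list, lone sites were 69.9%, width 814 bp, WT-marked promoters 55.2% and introns 46.1%. No value moved without the deletion list. Flanks were 3.8% at 1 kb and 14.4% at 5 kb, and lone sites 48.2% beyond 20 kb and 85.6% beyond 5 kb. Replicate 2 peaks were at 0.709% of regions with no slack, 2.17% with 2 kb, 0.464% of lone sites and 0.962% at genes of equal length, a setting chosen after seeing the data. The GC content of the central 200 bp was 47.5%. No paired analysis was possible because no result comes from a test between groups with shared replicate numbers.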
